A study of Mus musculus with 6 samples.

Results

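Claudins are membrane proteins of the tight junction, the seal between neighbouring epithelial cells, and 10 claudin genes known from the gut and its neighbouring organs were followed here among the 28752 genes of the deposited table. They were chosen by gene name, and all 10 (Cldn1, Cldn2, Cldn3, Cldn4, Cldn7, Cldn8, Cldn12, Cldn15, Cldn18 and Cldn23) were listed. RNA sequencing compared intestinal stem cells (ISCs) carrying the vector (n = 3) with ISCs overexpressing circEZH2_005, a circular RNA made from the Ezh2 gene (n = 3). The labels give the vector cells the genotype WT and the others circEZH2_005 overexpression. Adenovirus infection for 72 h is given for all 6 samples, those with vector included. All 6 samples went through hypoxia/reoxygenation (H/R), with hypoxia for 4 h in 2% O2, 5% CO2 and 93% N2, so that both groups share this treatment and normoxic cells were not analysed here. The cells were Lgr5-positive crypt cells from Lgr5-GFP mice, in which the Lgr5 promoter drives the fluorescent marker, sorted by their fluorescence and then grown as organoids. Such organoids hold the stem cells together with the cell types they give rise to. Whether the sort left leukocytes out was not tested. The study states that all its animals were male and gives no age for the Lgr5-GFP mice, and neither the labels nor the methods say whether samples of a group came from separate animals, so the p-values measure the spread between these samples.

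Each claudin spans the membrane with a pair of extracellular loops that meet those of the next cell, and the set of claudins a cell makes decides which ions and molecules pass between cells. Sealing claudins such as Cldn3, Cldn4 and Cldn7 close this route, whereas pore-forming claudins such as Cldn2 and Cldn15 open it to sodium, other small cations and water. Loss of the seal after ischemia lets luminal contents reach the tissue, and in the intestine the claudins of crypt and villus cells differ.

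Libraries held between 71506487 and 79919893 counts, so that a floor of 3 counts amounts to 0.0377 to 0.0419 CPM (counts scaled for library size with TMM factors). These floors cover counting error only. Epithelial identity was checked with 6 general epithelial markers, whose summed level was between 7139 and 7575 CPM in vector samples and between 8647 and 10806 CPM in circEZH2_005 samples. The stem cell marker Lgr5 was between 12.1 and 18.3 CPM with vector and between 7.70 and 9.10 CPM with circEZH2_005. A list of 8 leukocyte markers summed to 68.9, 184 and 86.0 CPM with vector and to 428, 346 and 255 CPM with circEZH2_005, values being given throughout in the order of samples 1 to 3. In that list, Ptprc, the pan-leukocyte antigen CD45, had counts of 1650, 5872 and 2497 with vector and of 14672, 10443 and 7410 with circEZH2_005. The samples are bulk RNA, so fewer cells of a type and less RNA per cell cannot be told apart. Krt8 of the epithelial list passed the test described next as higher, and Lgr5 and Smoc2 of 7 stem cell markers passed as lower. Of the 8 leukocyte markers 0 passed, and 4 had an unadjusted p under 0.05. The 7 stem cell markers summed to between 2012 and 2852 CPM with vector and between 1357 and 1986 CPM with circEZH2_005, without overlap. Of these 7, 5 had an unadjusted p under 0.05, and the list median was -0.68. Axin2 of that list went the other way, with a log2 fold change of 0.31. The 7 enterocyte markers of the villus summed to between 12680 and 14798 CPM with vector and between 13290 and 25486 CPM with circEZH2_005, which overlapped. Apoa4 passed as higher, 5 of the 7 had an unadjusted p under 0.05, and the median log2 fold change of the list was 0.86. Fabp1 and Sis of the enterocyte list went the other way, with log2 fold changes of -0.37 and -0.29. Of 7 goblet markers Clca1 passed as higher, with a list median of 0.14, while Agr2 and Spdef had log2 fold changes of -0.33 and -0.17. Of 6 Paneth markers 0 passed and 1 had an unadjusted p under 0.05, with a list median of -0.59. Of 5 endothelial markers, Pecam1 passed as higher, from at most 1.24 CPM with vector to at least 2.55 CPM with circEZH2_005, and the others, among them the endothelial claudin Cldn5 with at most 0.05 CPM, were too low to be tested. The part of these marker shifts in the claudin values was not tested.

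Of the 10 claudins, 9 passed edgeR's filter on low counts and Cldn1 did not. The 18348 genes that passed went into edgeR's quasi-likelihood test, and a gene was called where its Benjamini-Hochberg adjusted p lay under 0.05. By this rule 1 claudin was higher in circEZH2_005 samples and 0 were lower. The higher one was Cldn4. Among all genes tested, 3.67% passed in either direction, 2.69% as higher and 0.986% as lower. Without adjustment 4 of the 9 had a p-value under 0.05, 3 of them higher and 1 lower, beside 23.7% of all genes tested, 14.0% as higher and 9.72% as lower. The median log2 fold change of the 9 was 0.25, beside 2.15e-05 for all genes tested, with 6 values above and 3 below 0. The groups did not overlap for 4 claudins. Cldn4, Cldn7 and Cldn23 lay higher and Cldn12 lower in every circEZH2_005 sample, beside 16.4% of all genes tested that lay apart as higher and 14.2% as lower. DESeq2 called 3 claudins higher, the same 3 that lay apart, where it called 9.86% of all genes higher.

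**Figure D1:**
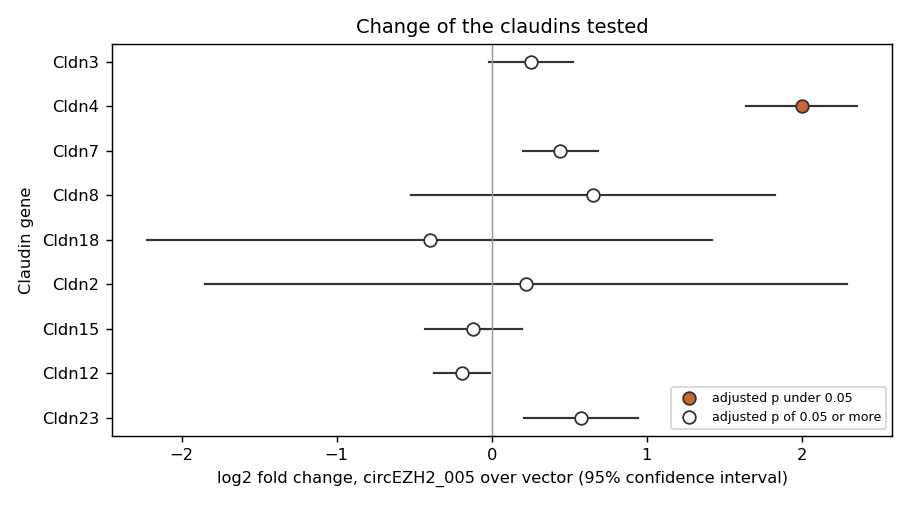
Log2 fold change of the 9 claudins tested (x axis, circEZH2_005 over vector, positive values higher with circEZH2_005), each with its 95% confidence interval from the edgeR fit on 3 samples per group. Cldn4, the filled point at 2.00, is the only claudin with an adjusted p under 0.05, and the intervals of Cldn2 and Cldn18 extend past 1 on both sides of 0.

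To set the claudins beside each other, levels were taken as FPKM (fragments per kilobase), a unit scaled for transcript length and library size that the authors deposited. In vector samples Cldn15 and Cldn7 led, with 227 ± 9.99 and 224 ± 14.4 FPKM (SD, n = 3 each), and their ranges overlapped. Cldn3 followed with 112 ± 9.24 FPKM (SD, n = 3), apart from both its neighbours in the order. Cldn2 had 76.5 and 79.3 FPKM in vector samples 2 and 3 but 2.71 FPKM in vector sample 1, so that its place in the order differed between the vector samples. Below these lay Cldn12 with 12.5 ± 0.69 FPKM, then Cldn4 with 8.85 ± 1.86 FPKM and Cldn23 with 7.24 ± 1.21 FPKM (SD, n = 3 each), of which the last pair overlapped. Cldn18, Cldn8 and Cldn1 were at or below 0.46 FPKM in every sample.

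In circEZH2_005 samples the order began with Cldn7 at 285 ± 18.7 FPKM, followed by Cldn15 at 196 ± 23.9 FPKM (SD, n = 3 each), and these ranges did not overlap. Cldn3 came next at 125 ± 7.79 FPKM and then Cldn2 at 57.8 ± 9.38 FPKM (SD, n = 3 each). Cldn4 followed at 33.3 ± 3.05 FPKM (SD, n = 3), above Cldn12 and Cldn23, which overlapped at 10.3 ± 1.11 and 10.1 ± 0.63 FPKM (SD, n = 3 each). The claudins at the bottom were the same as with vector.

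**Figure D2:**
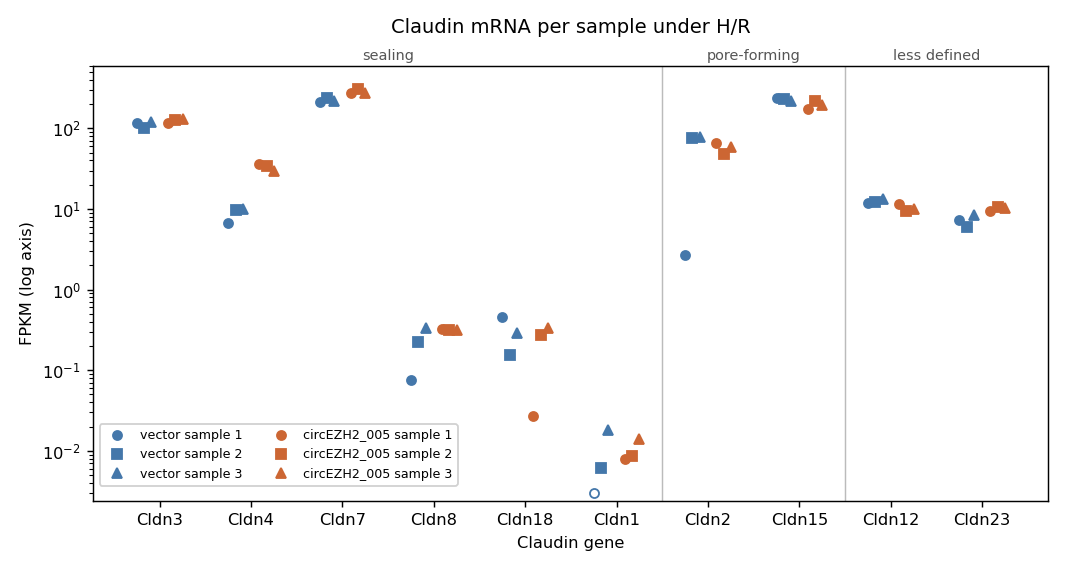
Level of each claudin in FPKM (log axis) in the 3 vector samples (blue) and the 3 circEZH2_005 samples (orange), with the marker shape giving the sample number and the genes grouped by role. Cldn4 stands higher in every circEZH2_005 sample (29.97 to 36.0 FPKM) than in every vector sample (6.71 to 10.1 FPKM), and Cldn2 has 1 low vector sample at 2.71 FPKM. The open point at the lower edge marks Cldn1 in vector sample 1, which had 0 counts and cannot be placed on a log axis.

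Cldn4 (ENSMUSG00000047501, chromosome 5, 134945119 to 134946934, minus strand, GRCm38, a gene of 1 exon) encodes a sealing claudin that is also a receptor of the enterotoxin of Clostridium perfringens. With vector it had 969, 1418 and 1542 counts and with circEZH2_005 5577, 5488 and 4601 counts. The highest vector sample thus lay far below the lowest circEZH2_005 sample. Scaled for library size this was 17.4 ± 3.46 CPM with vector and 69.4 ± 4.82 CPM with circEZH2_005 (SD, n = 3 each). The log2 fold change was 2.00 (standard error, SE, 0.15, edgeR adjusted p = 0.00249), which is 4.00-fold, with a 95% confidence interval from 1.64 to 2.36 on the log2 scale. The exact permutation test over the samples gave p = 0.1 (two-sided), the smallest value that 3 samples against 3 allow. Cldn4 is among the genes that the study itself singled out from these samples, so its place among the higher genes is not independent of that choice.

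Since the leukocyte and epithelial markers moved with the groups, Cldn4 was also set against other epithelial genes within each sample. Its FPKM over that of Epcam, the epithelial adhesion molecule that binds Cldn7, was 0.0118, 0.0178 and 0.0181 with vector and 0.0629, 0.0551 and 0.0525 with circEZH2_005. That ratio was 3.57 times as high in the mean with circEZH2_005 and did not overlap between the groups (exact permutation test, p = 0.1, adjusted p = 0.122 over 11 sums and ratios compared). In the same unit, Cldn4 alone averaged 8.85 FPKM with vector and 33.3 FPKM with circEZH2_005. Epcam is a general epithelial marker, so the ratio cannot show a shift between epithelial cell types. The vector sample with the most leukocyte signal, sample 2, had 18.98 CPM of Cldn4, between the 13.4 CPM of sample 1 and the 19.7 CPM of sample 3. The value of 1 sample cannot show whether other cells contributed to the Cldn4 difference. That question was not tested, nor was a shift between epithelial cell types.

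Cldn3 (ENSMUSG00000070473, chromosome 5, 134986214 to 134987472, plus strand, GRCm38) lies near Cldn4, and the 2 genes are read away from each other with 39279 bases and 0 listed genes between their starts. With vector it had 11680, 10204 and 12585 counts and with circEZH2_005 12537, 14391 and 14008 counts, and the groups overlapped through circEZH2_005 sample 1. The log2 fold change was 0.25 (SE 0.12, edgeR adjusted p = 0.235), with an interval from -0.02 to 0.52. This claudin, a sealing component and also a receptor of the same enterotoxin, therefore did not pass the test. The upper bound of its interval lies below the lower bound of Cldn4. The FPKM of Cldn3 was 17.4, 10.4 and 11.8 times that of Cldn4 with vector and 3.24, 3.78 and 4.39 times with circEZH2_005. The gap between these neighbours was thus smaller in every circEZH2_005 sample (exact permutation test, p = 0.1, adjusted p = 0.122). The end of Cldn3 overlaps Wbscr25, and no source says that reads were counted by strand, so reads of the overlap cannot be assigned with certainty.

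Outside the pair, the nearest genes averaging 1 FPKM or more were Mettl27 on the Cldn4 side and Abhd11 on the Cldn3 side. Mettl27 had counts of 323, 243 and 262 with vector and of 481, 321 and 410 with circEZH2_005, a log2 fold change of 0.54 (SE 0.21, edgeR adjusted p = 0.178). Abhd11 had 3484, 3920 and 4175 with vector and 4102, 4062 and 3705 with circEZH2_005, a log2 fold change of 0.04 (SE 0.08, edgeR adjusted p = 0.820). Neither neighbour passed the test, and Cldn4 was the only gene of these 4 that did.

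Because Cldn4 and Cldn3 sit side by side and differed in response, the 250 bases before each start are shown, with those of Cldn2, whose values are described further on. They come from RefSeq (GRCm38.p6), which held an entry for 8 of the 10 claudins, and read 5′ to 3′ on the strand of the gene. Capitals mark matches on either strand to the AP-1 motif TGANTCA, the TATA motif TATAAA, the GC box GGGCGG and the CDX motif TTTATG. The windows are chr5:134946935-134947184 (minus strand) for Cldn4, chr5:134985964-134986213 (plus strand) for Cldn3 and chrX:139800558-139800807 (plus strand) for Cldn2.
Cldn4: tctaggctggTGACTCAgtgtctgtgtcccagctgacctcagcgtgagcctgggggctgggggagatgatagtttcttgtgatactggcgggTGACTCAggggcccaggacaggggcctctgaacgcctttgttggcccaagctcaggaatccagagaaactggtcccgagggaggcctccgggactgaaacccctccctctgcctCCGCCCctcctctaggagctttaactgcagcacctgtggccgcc
Cldn3: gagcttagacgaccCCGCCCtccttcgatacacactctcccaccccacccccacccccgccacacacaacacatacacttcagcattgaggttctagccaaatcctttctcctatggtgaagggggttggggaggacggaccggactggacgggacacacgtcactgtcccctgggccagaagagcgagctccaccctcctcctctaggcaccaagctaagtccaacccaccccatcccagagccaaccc
Cldn2: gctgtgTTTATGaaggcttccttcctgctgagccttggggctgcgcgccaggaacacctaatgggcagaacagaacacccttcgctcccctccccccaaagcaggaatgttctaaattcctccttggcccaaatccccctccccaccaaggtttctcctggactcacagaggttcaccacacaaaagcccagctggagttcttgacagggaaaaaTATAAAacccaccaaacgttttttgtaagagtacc
The Cldn4 window held 2 AP-1 matches, TGACTCA at -240 and at -158 (the first base of the match, counted back from the start), and a GC box on the opposite strand at -44. The Cldn3 window held a GC box at -236 and the Cldn2 window a TATA match at -35 and a CDX match at -244. No match overlapped another. Of 32851 RefSeq windows of this length, 6.75% held the AP-1 letters, 12.4% the TATA letters, 32.7% the GC box and 10.8% the CDX letters. Among the claudins with an entry, Cldn15 was the other gene with AP-1 letters, at -214. These matches describe the letters only, and binding of a factor was not measured.

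Cldn7 (ENSMUSG00000018569, chromosome 11, 69964779 to 69967885, plus strand, GRCm38), a sealing claudin found along the lateral membrane and bound there by Epcam, had counts of 32969, 37325 and 35968 with vector and of 45849, 53372 and 45023 with circEZH2_005. Every circEZH2_005 sample lay above every vector sample, with 471 ± 24.4 CPM against 641 ± 71.1 CPM (SD, n = 3 each). The log2 fold change was 0.44 (standard error 0.10, unadjusted p = 0.00322), and it did not pass the test after adjustment (edgeR adjusted p = 0.0595). With circEZH2_005 sample 1 left out, the adjusted p was 0.0427 by edgeR, a fit in which 2.91% of all genes were called higher, and with DESeq2 on all samples it was 0.00274. The call for Cldn7 thus rests on the tool and on 1 sample, whereas its direction does not, with log2 fold changes from 0.35 to 0.51 over 12 alternatives.

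**Figure D3:**
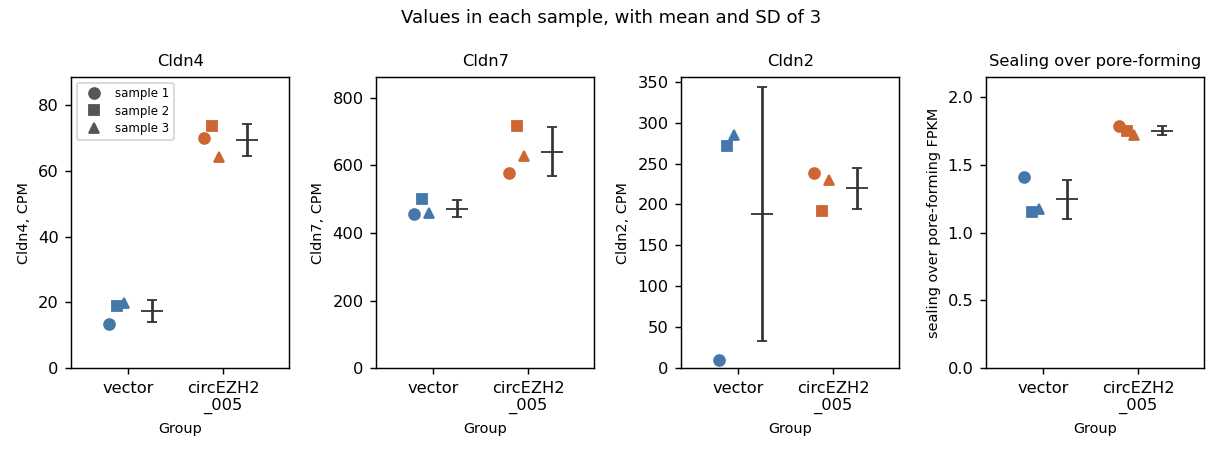
Cldn4, Cldn7 and Cldn2 in CPM and the ratio of summed sealing to summed pore-forming claudin FPKM, in each vector (blue) and circEZH2_005 (orange) sample, with the mean and SD of 3 samples beside the points and every axis starting at 0. Cldn4, Cldn7 and the ratio are apart between the groups, and Cldn2 is at 9.90 CPM in vector sample 1 against at least 191 CPM in the other samples.

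The remaining sealing claudins were scarce in these cells. Cldn8 (ENSMUSG00000050520, chromosome 16, 88560828 to 88563183, minus strand), a sealing claudin best known from colon and kidney, had counts of 15, 42 and 68 with vector and of 65, 66 and 63 with circEZH2_005. Vector sample 3 reached the circEZH2_005 level, and the log2 fold change of 0.65 (SE 0.51, edgeR adjusted p = 0.490) did not pass the test. Cldn18 (ENSMUSG00000032473, chromosome 9, 99689461 to 99717267, minus strand), the claudin of the stomach lining and the lung, had counts of 163, 57 and 111 with vector and of 11, 109 and 126 with circEZH2_005. Sample 1 of the circEZH2_005 group was the lowest of all 6, and the log2 fold change was -0.40 (SE 0.78, edgeR adjusted p = 0.808). The same library was also the lowest for a list of 6 stomach markers, which summed to 84.0, 46.0 and 67.2 CPM with vector and to 15.4, 65.5 and 86.3 CPM with circEZH2_005. Without that library the log2 fold change of Cldn18 was 0.12, and without vector sample 1 it was 0.03, so its direction rests on single samples. Cldn1 (ENSMUSG00000022512, chromosome 16, 26356642 to 26371841, minus strand), a sealing claudin of the skin and other epithelia, had counts of 0, 3 and 8 with vector and of 4, 4 and 6 with circEZH2_005. These values lie at or near the floor of 3 counts, and a difference was not detectable at this depth.

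Among the pore-forming claudins, Cldn2 (ENSMUSG00000047230, chromosome X, 139800828 to 139811386, plus strand, GRCm38) forms a channel for cations and water and is known from crypt cells. With vector it had 717, 20299 and 22263 counts and with circEZH2_005 18923, 14244 and 16462 counts. Vector sample 1 lay far below all others, and the lowest of the others was 19.3 times higher in CPM. With all samples the log2 fold change was 0.22 (SE 0.89, edgeR adjusted p = 0.914), with an interval from -1.85 to 2.29. Without vector sample 1 it turned to -0.34 (SE 0.13, edgeR adjusted p = 0.254), and all 3 circEZH2_005 samples then lay below both remaining vector samples. The test was passed in neither fit.

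The low value of Cldn2 in vector sample 1 was singled out after the values were seen. When all genes tested were ranked by how far vector sample 1 lay below the lowest other sample, with 0.5 CPM added to each value, Cldn2 ranked 1 with a log2 ratio of -4.21, followed by Gm28036 with -2.61. No listed gene overlaps Cldn2. The next gene averaging 1 FPKM or more, Morc4, had counts of 791, 1094 and 1141 with vector and of 1012, 651 and 1017 with circEZH2_005. Vector sample 1 was the lowest vector sample there, at 10.9 CPM against 14.6 and 14.6 CPM. Of all 6 samples, circEZH2_005 sample 2 was the lowest, at 8.75 CPM. Over 577 tested genes of the X chromosome, the median log2 ratio of vector sample 1 to the mean of vector samples 2 and 3 was -0.01. A drop of the size seen for Cldn2 was not present in this neighbour or in the median of the chromosome. The cause of the low Cldn2 value in vector sample 1 was not tested.

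Cldn15 (ENSMUSG00000001739, chromosome 5, 136966616 to 136975858, plus strand, GRCm38) forms a sodium channel that supplies the sodium used in nutrient uptake in the small intestine. It had 39917, 38748 and 38859 counts with vector and 31325, 41825 and 34889 with circEZH2_005. The circEZH2_005 samples spread around the vector samples, with sample 1 the lowest and sample 2 the highest of all. The log2 fold change was -0.12 (SE 0.13, edgeR adjusted p = 0.649), and the interval from -0.43 to 0.19 on the log2 scale bounds any change. Without circEZH2_005 sample 1 the log2 fold change was 0.0052.

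Cldn12 and Cldn23 have less well defined roles, and Cldn12 has been linked to the passage of calcium. Cldn12 (ENSMUSG00000046798, chromosome 5, 5489537 to 5514912, minus strand) had counts of 4032, 4106 and 4738 with vector and of 4177, 3570 and 3543 with circEZH2_005. In CPM every circEZH2_005 sample lay below every vector sample, with 57.1 ± 3.03 against 49.99 ± 2.33 CPM (SD, n = 3 each), but the log2 fold change of -0.19 (SE 0.08, edgeR adjusted p = 0.189) did not pass the test. Cldn23 (ENSMUSG00000055976, chromosome 8, 35824712 to 35826559, minus strand) had counts of 1070, 886 and 1316 with vector and of 1483, 1748 and 1623 with circEZH2_005. It lay higher in every circEZH2_005 sample, with 14.5 ± 2.49 against 21.6 ± 2.59 CPM (SD, n = 3 each). Its log2 fold change of 0.58 (SE 0.16, edgeR adjusted p = 0.0813) did not pass the test, while DESeq2 gave an adjusted p of 0.0122. These 2 genes of similar FPKM with circEZH2_005 thus had fold changes of opposite sign.

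As a share of the summed FPKM of the 10 claudins, Cldn4 made up 1.13, 1.45 and 1.51% with vector and 5.22, 4.47 and 4.23% with circEZH2_005. The share of Cldn7 was between 32.9 and 35.8% with vector and between 38.6 and 40.5% with circEZH2_005, again without overlap. That of Cldn15 was between 32.6 and 39.7% with vector and between 25.1 and 29.1% with circEZH2_005. The share of Cldn3 was 17.5 ± 2.30% with vector and 17.5 ± 0.96% with circEZH2_005 (SD, n = 3 each). Of 10 shares compared, those of Cldn4, Cldn7, Cldn12, Cldn15 and Cldn23 lay apart between the groups, each with the smallest p the design allows (two-sided exact permutation test, p = 0.1, adjusted p = 0.2 over the 10). Shares add up to a whole, so a higher share of 1 claudin lowers the others.

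**Figure D4:**
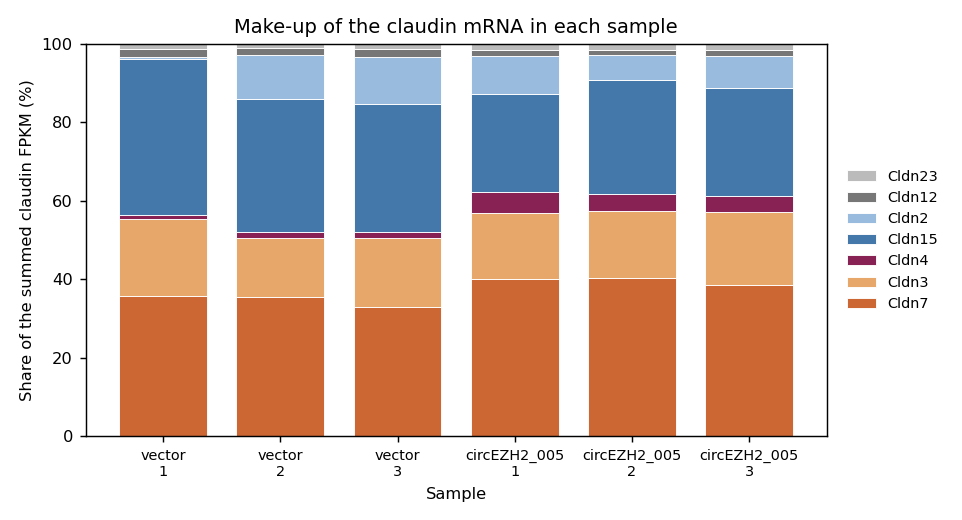
Share of each claudin in the summed FPKM of the 10 claudins (y axis, percent) in each of the 6 samples. Cldn8, Cldn18 and Cldn1 are too small to draw. The band of Cldn4 is at most 1.51% with vector and at least 4.23% with circEZH2_005, and that of Cldn2 is 0.46% in vector sample 1.

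The sealing claudins (Cldn1, Cldn3, Cldn4, Cldn7, Cldn8 and Cldn18) summed to 337, 352 and 348 FPKM with vector and to 429, 470 and 436 FPKM with circEZH2_005. The pore-forming Cldn2 and Cldn15 summed to 239, 305 and 296 FPKM with vector and to 239.6, 269 and 253 FPKM with circEZH2_005, which overlapped. The ratio of the first sum to the second was 1.41, 1.15 and 1.17 with vector and 1.79, 1.75 and 1.72 with circEZH2_005. It was higher in all 3 circEZH2_005 samples (exact permutation test, p = 0.1, adjusted p = 0.122), and the highest vector value was that of sample 1, the sample with little Cldn2. Over Cldn15 alone, which leaves Cldn2 out, the sealing sum was 1.52 ± 0.09 with vector and 2.28 ± 0.18 with circEZH2_005 (SD, n = 3 each). In FPKM the largest part of the difference in the sealing sum came from Cldn7, with means of 224 and 285 FPKM, beside 8.85 and 33.3 FPKM for Cldn4.

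The 3 genes whose log2 CPM followed that of Cldn4 most closely over the 6 samples, among 11601 genes averaging 1 FPKM or more, were Ssh1, Gsdmc2 and Tmem140, with Pearson's r of 0.9987, 0.9962 and 0.9961. Ssh1, a phosphatase acting on the actin regulator cofilin, had between 9.85 and 11.2 CPM with vector and between 16.2 and 16.7 CPM with circEZH2_005. Gsdmc2, of the gasdermin family, had between 3.29 and 6.57 CPM with vector and between 37.7 and 59.9 CPM with circEZH2_005. Its reads could be shared with close paralogs of that family. Tmem140 had between 4.05 and 5.35 CPM with vector and between 17.4 and 22.2 CPM with circEZH2_005. These values are descriptions over 6 points that fall into 2 groups, so that any gene with a gap between the groups correlates well. Among the claudins, the closest to Cldn4 by this measure was Cldn7 (r = 0.92), at rank 477.

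The other claudin genes of the table, 11 with a Cldn or Cldnd name, were nearly all near 0, and 3 of them could be tested. Of these, 0 were called in either direction by edgeR, with 1 unadjusted p-value under 0.05, and 0 by DESeq2. The most abundant was Cldnd1, a claudin-domain protein, with 72.0 ± 4.10 CPM with vector and 62.4 ± 3.91 CPM with circEZH2_005 (SD, n = 3 each). Its samples lay lower with circEZH2_005 without overlap, with a log2 fold change of -0.21 (SE 0.08, edgeR adjusted p = 0.184).

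Claudins work with scaffold proteins, other membrane proteins of the junction, proteins that process or hold claudins and transcription factors tied to claudin genes, and a list of 60 such genes was examined. Of these, 59 were listed and 56 tested, and edgeR called 0 higher and 0 lower. Without adjustment 15 had a p-value under 0.05, 12 higher and 3 lower, beside 23.7% of all genes tested, and the median log2 fold change of the 56 was 0.09. DESeq2 called 3 higher (Crb3, Elf3 and Zeb2) and 1 lower (Pard6g), named here after their values were seen, where it called 9.86% of all genes higher and 5.02% lower. The lowest adjusted p by edgeR, 0.0605, was that of Crb3, a polarity protein, with a log2 fold change of 0.45 (standard error 0.11). Zeb2, a transcription factor that represses epithelial genes and is also made by leukocytes, had at most 2.59 CPM in any sample.

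Ocln, which encodes occludin, had 143 ± 4.98 CPM with vector and 144 ± 11.4 CPM with circEZH2_005 (SD, n = 3 each), for a log2 fold change of 0.01 (SE 0.09, edgeR adjusted p = 0.961). The scaffold genes Tjp1 and Tjp3 encode zonula occludens proteins that anchor claudins to actin. Their log2 fold changes were 0.12 and -0.16, with adjusted p-values of 0.524 and 0.405 by edgeR, and the groups overlapped for both. Epcam had 1323 ± 38.6 CPM with vector and 1481 ± 135 CPM with circEZH2_005 (SD, n = 3 each), for a log2 fold change of 0.16 (edgeR adjusted p = 0.360). Grhl2, a transcription factor known to act on claudin genes including Cldn4, had a log2 fold change of -0.21 (SE 0.12, edgeR adjusted p = 0.327). These partners had smaller log2 fold changes than Cldn4, and none passed the test.

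**Figure D5:**
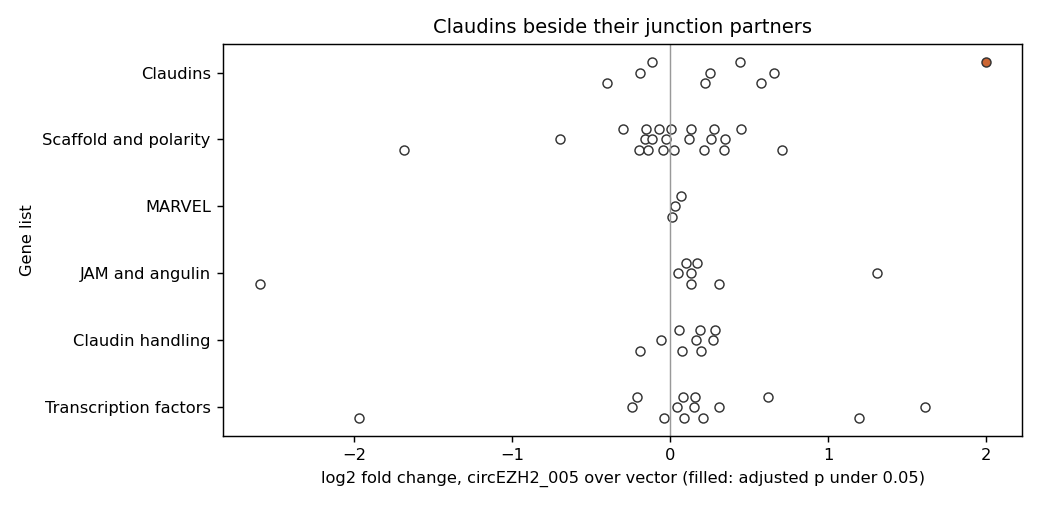
Log2 fold change (x axis, circEZH2_005 over vector) of the 9 claudins tested and of the 56 junction partners tested, 1 point per gene, by list (y axis). The 1 filled point, Cldn4 at 2.00, is the only gene drawn with an adjusted p under 0.05, and the partners farthest from 0 have few counts.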

How the data were processed

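RNA sequencing was measured in 6 samples, 3 vector and 3 circEZH2_005, grouped and numbered from the labels. The table's control columns are named NC and were matched to vector, since the labels hold no other control. The authors deposited raw counts per gene and sample, together with FPKM values. The submitters' processing notes name cutadapt 1.9, HISAT2 2.0.4, StringTie 1.3.4d, DESeq2 and the build mm10, without a role or order, and the counting program is not given in the sources used here. Polyadenylated RNA was selected with oligo(dT), so circEZH2_005 itself was not analysed here.

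The claudins, the lists and the tests were chosen with earlier results of these data known. Genes were filtered with filterByExpr, scaled with TMM and tested with glmQLFit and glmQLFTest (edgeR 4.0.16, R 4.3.3) with the group as the only term. P-values were adjusted (Benjamini-Hochberg) across all 18348 genes tested, with a threshold of 0.05. Standard errors were obtained by dividing the log2 fold change by the root of the F statistic. For shares, sums and ratios of FPKM, exact permutation tests over samples (two-sided) were run (scipy 1.17.1). They cannot go below 0.1 here. Alternatives were median-of-ratios scaling, no filter, DESeq2 1.42.0 (1793 adjusted p-values given as NA), the replicate number as a block, limma 3.58.1 on log2(FPKM + 1) and log2(FPKM + 0.1) (genes averaging 0.5 FPKM or more), each sample left out, a 2-fold threshold with unadjusted p, and CPM in place of FPKM. The genes named are the 10 claudins, the other claudin genes past the threshold or with the highest FPKM, Ocln, Tjp1, Tjp3, Epcam and Grhl2 with any partner past the threshold, the 3 genes closest to Cldn4 and the genes beside Cldn3 and Cldn4. The result for 1 further partner is not reported here. The edgeR script was tested on simulated data. Positions were checked in GENCODE M21 (GRCm38), where that of Cldn12 was not the same as printed here. Promoters came from RefSeq.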

Additional observations from a re-analysis of the deposited data

How the results depend on the processing

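The call of Cldn4 as higher held in all 12 alternatives run, with log2 fold changes from 1.81 to 2.10 and a highest adjusted p of 0.0250 (edgeR without vector sample 3). The count of higher claudins was 3 with DESeq2, which added Cldn7 (log2 fold change 0.44, adjusted p = 0.00274) and Cldn23 (0.58, adjusted p = 0.0122), and lay between 1 and 2 when samples were left out, where the fit without circEZH2_005 sample 1 added Cldn7 (0.51, adjusted p = 0.0427 by edgeR). The direction turned for Cldn2 without vector sample 1 (-0.34), for Cldn15 without circEZH2_005 sample 1 (0.0052) and for Cldn18 without vector sample 1 (0.03) or circEZH2_005 sample 1 (0.12). With each sample left out in turn, the log2 fold changes ran from -0.34 to 0.64 for Cldn2, from -0.25 to 0.0052 for Cldn15 and from -0.88 to 0.12 for Cldn18. With CPM in place of FPKM, the difference in the ratio of sealing to pore-forming claudins was 0.35 in place of 0.51, and that in the share of Cldn12 was -0.998 percentage points. Junction partners called higher numbered 3 with DESeq2, 2 by fold change with unadjusted p and between 0 and 2 when samples were left out. Those called lower numbered 1 with DESeq2 and 2 by fold change. Among all genes, the fold change rule called 1142 higher and 246 lower, and the fits with a sample left out called between 26 and 1098 higher. The cause of these shifts was not tested.

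Over all genes, the 493 higher and 181 lower genes became 132 and 37 without the filter, 1632 and 831 with DESeq2, 1142 higher by fold change with unadjusted p, 364 lower with limma on log2(FPKM + 1), and 323 and 319 with limma on log2(FPKM + 0.1). Leaving out samples gave between 26 and 1098 higher and between 2 and 334 lower genes. With the replicate block, 241 were higher and 36 lower, and Cldn4 stayed higher (2.02, adjusted p = 0.0112 by edgeR), with no other claudin called. Deviations of same-numbered samples correlated at -0.14, -0.02 and 0.04, which gives no sign of pairing. Such correlations cannot show whether same-numbered samples shared an animal or a batch. Counts were too few to test only for Cldn1, but they were also low for Cldn8 (15 to 68) and Cldn18 (11 to 163). With 3 samples per group, whether spread between samples or counting limits the claudins tested was not itself tested.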
